A study of Rattus norvegicus with 6 samples.

Results

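The 45 genes described here encode the core machinery that copies DNA in S phase, and all of them were found by symbol among the 17337 gene names of the RNA-seq tables. They were chosen from a fixed list of symbols that covers origin recognition and helicase loading, helicase activation, the sliding clamp and its loader, the replicative polymerases, replication protein A, Okazaki fragment maturation and nucleotide supply. The list sets no threshold on a measured value. The mRNA came from neural progenitors isolated from the cortex of embryonic day 14 Sprague Dawley rats of either sex, expanded in culture with the growth factors bFGF and EGF and collected untreated after passaging. The study labels 2 biological replicates, A and B, with a pair of technical libraries from each, here called A1, A2, B1 and B2. All 4 libraries belong to 1 condition, so the replicates were compared as replicates and no test between groups was possible. The 2 Start-seq samples of the study, which map capped 5′-ends, were not analysed here.

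In a dividing cell, the origin recognition complex (ORC) binds origins and, with Cdc6 and Cdt1, loads the Mcm2-7 helicase as an inactive ring in G1. Geminin, encoded by *Gmnn*, holds Cdt1 back once S phase has begun. Cdc45 and the GINS complex then turn the loaded ring into the active helicase, polymerase alpha with primase lays down primers, and the clamp Pcna, loaded by replication factor C, tethers polymerases delta and epsilon to the template. Expanding cortical progenitors cycle actively, and many replication genes are textbook targets of E2F transcription factors, which are released from Rb family proteins at the entry into S phase.

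The libraries were not alike in depth or in the markers of other cells. The coverage that corresponds to 1 FPKM (fragments scaled to transcript length and library size), a ratio that grows with depth, was 24.3, 22.7 and 24.4 in A1, A2 and B1 but 6.83 in B2, which is 28.0% of B1. All 10 neural progenitor markers examined were above 1 FPKM, and their summed FPKM was 21179 and 23262 in A1 and A2 and 10193 and 10987 in B1 and B2. Without *Fabp7*, the highest of them, the other 9 summed to 4380 and 4705 in A and to 3674 and 5502 in B, a sum led by *Vim*. By gene, 6 of the 10 markers were higher in both libraries of A than in both of B and 0 the other way, with a median difference of -0.39 on the log2(FPKM + 1) scale, B minus A. All 10 mesenchymal and meningeal markers, such as the collagen genes *Col1a1* and *Col3a1*, were higher in both libraries of B than in both of A, and their summed FPKM was 667 and 649 in A and 2498 and 3301 in B. Of these, *Ptgds*, which encodes a prostaglandin synthase of the meninges, was 8.18 FPKM in B1 and 292 in B2, although both are labelled as technical libraries of 1 replicate. Whether B1 and B2 came from 1 culture could not be settled from the files, and every mean and SD of replicate B follows the labels. Oligodendrocyte lineage markers summed to 269 and 294 in A and to 705 and 364 in B. Of the 10 neuronal markers, 7 were higher in both libraries of A, with sums between 199 and 257 across the libraries. None of the 5 endothelial and 6 microglial markers reached a mean of 1 FPKM, although only *Cx3cr1* and *Ptprc* were at 0 in any library. The part of other cells in the values below was not tested, and in bulk RNA fewer cells of a type and less RNA per cell cannot be told apart.

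The sequence in front of these genes was examined first. RefSeq promoter windows of the GRCr8 build, which run from 250 bases before a transcript start to 50 bases from it, were at hand for 38 of the 45 genes. *Mcm4*, *Orc1*, *Orc4*, *Cdc6*, *Gins4*, *Rpa3* and *Rrm2* had no window. The letters searched for E2F on both strands were TTTCCCGC, TTTCGCGC, TTTGCCGC and TTTGGCGC. A match was found in 19 of the 38 windows, or 50%, against 2.14% of all 33469 windows, 2.74% of the 21851 windows of protein-coding genes and 4.13% of the 8379 windows of genes at 1 FPKM or above. The windows of all 5 Mcm2-7 genes examined held at least 1 match. They are shown in full because no other role had a match in every one of more than 2 windows, for *Mcm2* (chr4:122918045-122918344, minus strand), *Mcm3* (chr9:30733697-30733996, minus strand), *Mcm5* (chr19:13488563-13488862, plus strand), *Mcm6* (chr13:42404303-42404602, minus strand) and *Mcm7* (chr12:22163129-22163428, minus strand). Each is written 5′ to 3′ on the strand of the gene with E2F matches in capitals, and base 251 is the transcript start.
Mcm2: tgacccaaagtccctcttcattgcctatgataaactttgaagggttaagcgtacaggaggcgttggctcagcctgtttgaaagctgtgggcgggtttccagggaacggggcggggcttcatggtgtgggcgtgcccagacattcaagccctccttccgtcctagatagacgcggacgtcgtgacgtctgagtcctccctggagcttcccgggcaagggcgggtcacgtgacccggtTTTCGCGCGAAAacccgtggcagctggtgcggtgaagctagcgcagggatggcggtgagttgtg
Mcm3: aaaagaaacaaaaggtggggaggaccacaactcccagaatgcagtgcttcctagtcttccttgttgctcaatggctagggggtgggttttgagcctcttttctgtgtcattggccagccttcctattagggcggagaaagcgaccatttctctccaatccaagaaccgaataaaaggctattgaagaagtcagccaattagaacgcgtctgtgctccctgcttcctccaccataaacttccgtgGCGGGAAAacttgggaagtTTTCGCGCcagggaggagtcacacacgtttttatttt
Mcm5: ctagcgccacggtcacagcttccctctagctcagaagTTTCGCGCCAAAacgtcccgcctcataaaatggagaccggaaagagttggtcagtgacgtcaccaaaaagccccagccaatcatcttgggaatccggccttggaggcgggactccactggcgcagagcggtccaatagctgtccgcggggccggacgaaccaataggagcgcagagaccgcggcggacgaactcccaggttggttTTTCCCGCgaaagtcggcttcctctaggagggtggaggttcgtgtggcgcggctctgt
Mcm6: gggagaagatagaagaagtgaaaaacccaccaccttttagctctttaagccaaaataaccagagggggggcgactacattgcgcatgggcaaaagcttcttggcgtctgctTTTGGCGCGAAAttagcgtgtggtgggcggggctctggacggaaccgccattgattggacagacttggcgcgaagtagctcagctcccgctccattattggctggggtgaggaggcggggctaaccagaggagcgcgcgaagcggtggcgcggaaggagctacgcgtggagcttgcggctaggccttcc
Mcm7: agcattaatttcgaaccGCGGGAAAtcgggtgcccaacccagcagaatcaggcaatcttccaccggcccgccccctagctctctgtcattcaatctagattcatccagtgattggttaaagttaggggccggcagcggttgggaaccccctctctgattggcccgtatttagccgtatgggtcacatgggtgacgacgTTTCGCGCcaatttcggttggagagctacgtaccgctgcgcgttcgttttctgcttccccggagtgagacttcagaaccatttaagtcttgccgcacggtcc

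In *Mcm2* the capitals are a pair of overlapping matches on opposite strands that together read the same on both strands, and they begin 14 bases before the start. *Mcm3* had a match on each strand, at -6 and +13 relative to the start. *Mcm5* had 3 matches, an overlapping pair at -213 and -209 and a single match at -8, whereas the overlapping pair of *Mcm6* lay at -139 and -135. *Mcm7* had matches at -233 and -52. A match describes these letters in this window and does not show that a factor bound there. All positions count from RefSeq starts on GRCr8, which were not checked against the Start-seq data. The paper reports that many starts annotated on rn6 differed from those it mapped. *Prim2* lies on the plus strand of rn6, while its window is on the minus strand of GRCr8. Whether positions, shares near the start or windows without a match would hold from mapped starts was not tested.

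Beyond the helicase, a match was present in 2 of 2 windows of the loading genes *Cdt1* and *Gmnn*, in 3 of 5 for polymerases delta and epsilon, in 2 of 4 for ORC and in 2 of 5 for helicase activation. It was present in 1 of 6 windows of the clamp and its loader, 1 of 4 of polymerase alpha and primase, 1 of 2 of replication protein A, 1 of 2 of Okazaki fragment maturation and 1 of 3 of nucleotide supply. In total 28 matches were counted and 8 genes had 2 or more of them. Of the 28 matches, 21, or 75%, began within 100 bases before the start or downstream of it, against 54.1% of the 745 matches in all windows. Short stretches around 1 match of 10 further genes, with at least 1 gene from each of the other 9 roles, are shown for *Orc5* (chr4:13440143-13440178, plus strand), *Cdt1* (chr19:67529242-67529277, plus strand), *Gmnn* (chr17:40729858-40729883, plus strand), *Gins1* (chr3:160184881-160184916, plus strand), *Rfc3* (chr12:5836551-5836586, plus strand), *Pola1* (chrX:62342506-62342541, minus strand), *Pole2* (chr6:93435331-93435366, minus strand), *Rpa2* (chr5:150260765-150260800, plus strand), *Lig1* (chr1:83243175-83243210, plus strand) and *Tyms* (chr9:120776099-120776134, minus strand). In *Orc5* and *Pola1* the match lay far from the start, at -176 and -172, and in the other 8 it lay between -37 and +38.
Orc5: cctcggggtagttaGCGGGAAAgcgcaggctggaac
Cdt1: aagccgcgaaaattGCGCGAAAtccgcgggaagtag
Gmnn: caggttcgggtcgtTTTGGCGCggtt
Gins1: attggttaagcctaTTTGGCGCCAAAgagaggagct
Rfc3: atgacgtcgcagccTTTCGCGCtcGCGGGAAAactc
Pola1: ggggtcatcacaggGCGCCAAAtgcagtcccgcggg
Pole2: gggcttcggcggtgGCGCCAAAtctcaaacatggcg
Rpa2: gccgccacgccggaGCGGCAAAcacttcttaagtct
Lig1: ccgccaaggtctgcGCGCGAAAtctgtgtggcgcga
Tyms: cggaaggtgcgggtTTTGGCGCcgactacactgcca

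The stretch of *Gins1* holds an overlapping pair that is again the same on both strands, and that of *Rfc3* holds a match on each strand 10 bases apart. *Pcna* had no match in its window on GRCr8 (chr3:139955771-139956070, minus strand), which is given for contrast because it is the highest of the 45 genes.
Pcna: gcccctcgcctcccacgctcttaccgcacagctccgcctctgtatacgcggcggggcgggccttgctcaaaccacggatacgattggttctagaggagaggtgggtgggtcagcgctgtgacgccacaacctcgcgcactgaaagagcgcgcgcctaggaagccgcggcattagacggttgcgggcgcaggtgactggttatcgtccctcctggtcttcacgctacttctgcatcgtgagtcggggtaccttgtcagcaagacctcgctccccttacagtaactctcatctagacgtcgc

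Other motifs set these windows apart less. The E2F core TTCCCGC, which lies inside the first of the E2F words and so overlaps with it, was found in 39.5% of the windows against 8.27% of those of genes at 1 FPKM or above. The CCAAT box (CCAAT), the site of the factor NF-Y, was found in 57.9% against 37.8%. The CHR element (TTTGAA or TTCGAA), known from G2 and mitotic genes, was found in 15.8% against 12.8%, and the GC box (GGGCGG), the site of Sp1, in 63.2% against 64.5%. TATAAA was found in 1 window, 2.63%, against 6.22%. Over all windows the shares were 4.21% for the E2F core, 37.5% for CCAAT, 19.7% for CHR, 33.1% for the GC box and 14.2% for TATAAA. The shares for E2F and its core exceeded both backgrounds several times over, whereas the share for the GC box was close to that of other genes with mRNA. No test was run on these shares.

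**Figure D1:**
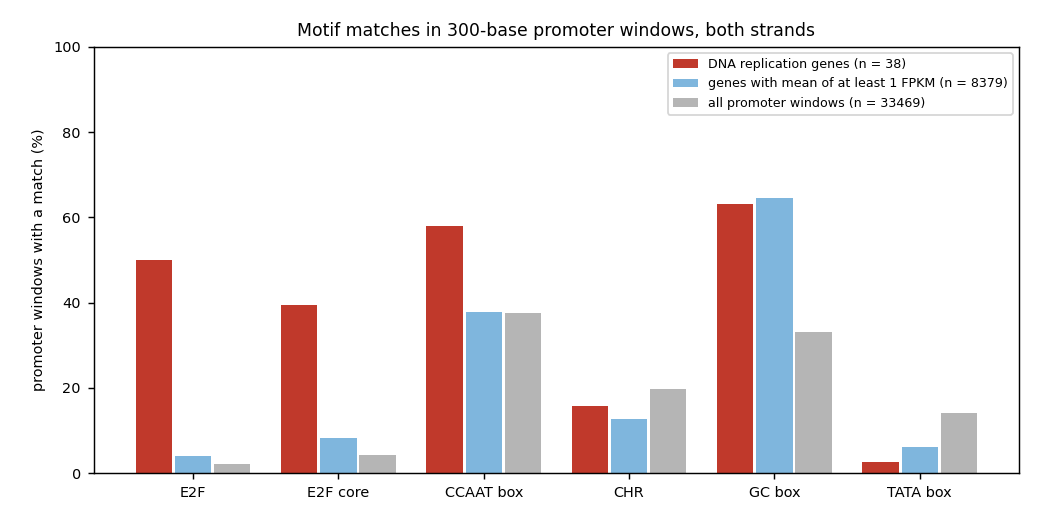
Percent of 300-base promoter windows (vertical axis) that hold each motif on either strand, for the 38 windows of DNA replication genes (red), the 8379 windows of genes at 1 FPKM or above (blue) and all 33469 windows (grey). E2F letters were in 50% of the red windows against 4.13% and 2.14%, while the red and blue bars of the GC box are at 63.2% and 64.5%.

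The mRNA levels of genes with and without E2F letters overlapped widely. The median of the 19 genes with a match was 10.1 FPKM, with a range from 2.78 for *Pola1* to 85.4 for *Mcm7*, and that of the 19 genes without one was 17.1, with a range from 2.62 for *Mcm10* to 132 for *Pcna*. By replicate, 17 of the 19 genes with a match and 14 of the 19 without one had a higher mean in B. The share was 46.8% over the gene names at the same FPKM limit as the window background, so both groups lay above it. On the log scale used for the markers, the median difference, B minus A, was 0.277 with a match and 0.29 without one. The medians were thus close, and a link between E2F letters and direction was not tested.

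All 45 genes had a mean of at least 1 FPKM, as did 60.5% of all gene names. There were 16 genes from 1 to 10 FPKM, 28 from 10 to 100 and 1, *Pcna*, above 100. A mean of at least 10 FPKM was reached by 29 of the 45, or 64.4%, and by 38.3% of all gene names, and a mean of at least 100 FPKM by 2.22% and 6.14%. The median over the 45 genes was 13.6 FPKM, above the 3.83 of all gene names and below the 16.6 of the gene names at 1 FPKM or above. Above the median of the genes that reached 1 FPKM lay 17 of the 45. Summed over the 45 genes, the FPKM was 821, 842, 867 and 974 in A1, A2, B1 and B2, or between 0.140% and 0.162% of all FPKM of a library.

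The order of the genes by level was much the same in both replicates, with a Spearman correlation of 0.959 between A and B over the 45 genes, which share their libraries. Most neighbours in that order could not be separated, since 39 of 44 neighbouring pairs had overlapping replicate ranges. The steps without overlap were *Pcna* above *Mcm7*, *Mcm7* above *Rpa3*, *Rpa3* above *Pold2*, *Rrm1* above *Rfc3*, and *Mcm10* above *Orc1* at the bottom. These refer to replicate means, and single libraries could reverse them, as *Rpa3* was above *Mcm7* in B2 and *Rfc3* above *Rrm1* in A1 and B1. The longer the gene span the lower the level tended to be, with a Spearman correlation of -0.348 across the 45 genes.

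**Figure D2:**
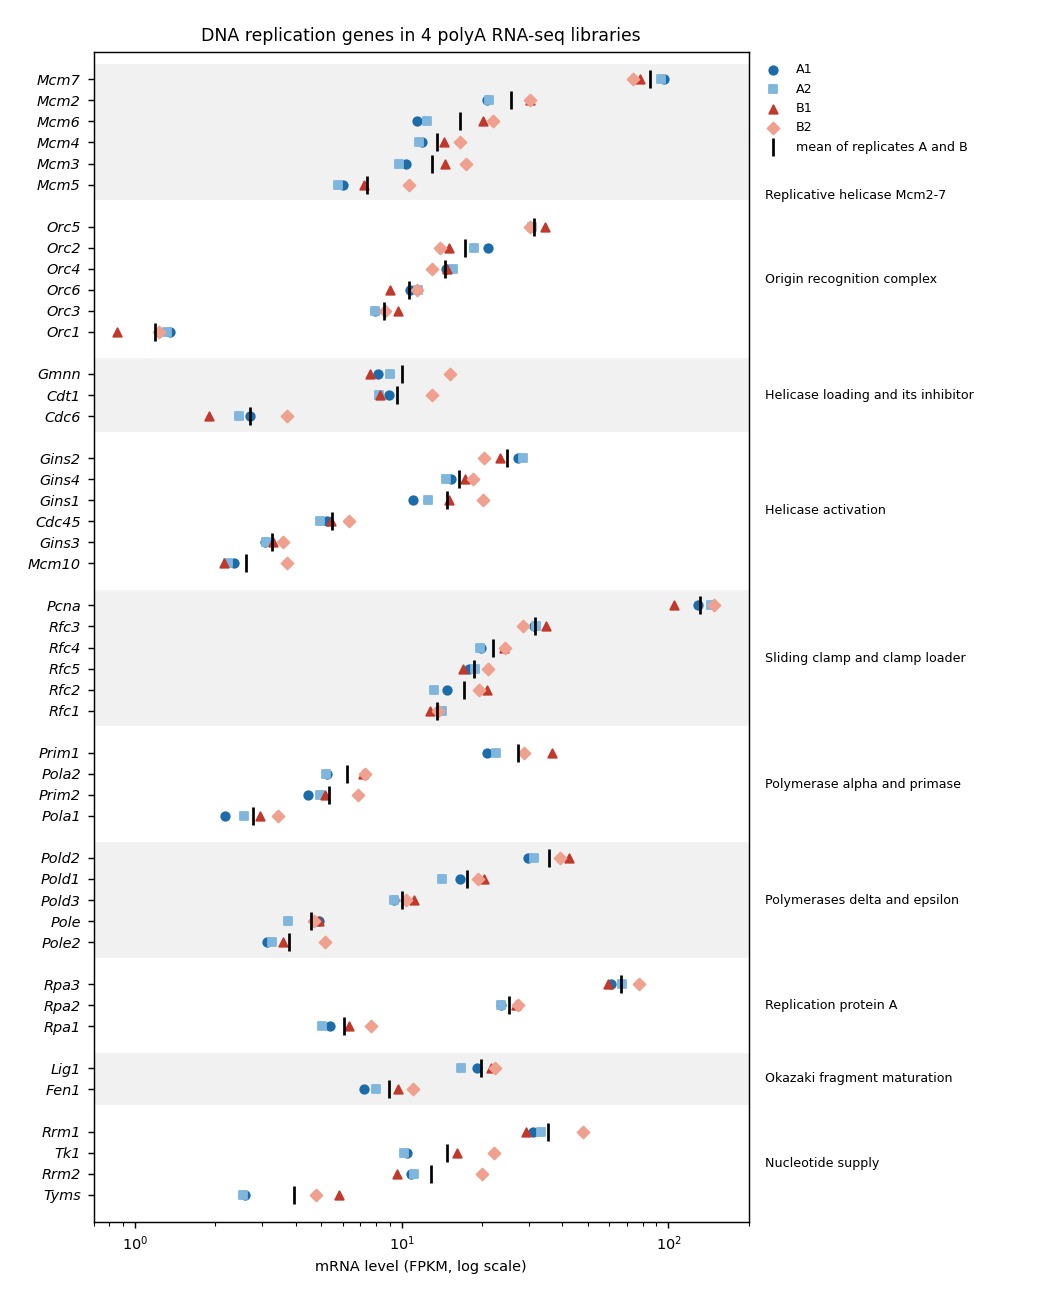
mRNA level in FPKM (horizontal axis, log scale) of the 45 DNA replication genes, grouped by role, in libraries A1, A2, B1 and B2, with a black tick at the mean of replicates A and B. *Pcna* at 132 FPKM and *Mcm7* at 85.4 lie far to the right of their complexes, and *Orc1* at 1.19 lies far to the left of the other ORC genes.

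Among the 6 Mcm2-7 genes, whose products form a ring with 1 copy of each, *Mcm7* stood above the rest and ran the other way between the replicates. *Mcm7*, at chr12:19306620-19313877 on the minus strand of rn6, measured 95.9 and 93.6 FPKM in A1 and A2 and 78.4 and 73.9 in B1 and B2, a mean of 85.4 ± 13.1 (SD, n = 2). *Mcm5*, the lowest of the ring, measured 6.01 and 5.76 in A and 7.24 and 10.6 in B, a mean of 7.41 ± 2.16. The ratio of their means was 11.5, and it was 16.1 in A against 8.52 in B. *Mcm7* exceeded the median of the other 5 genes 8.41-fold and 8.08-fold in A1 and A2 but 5.40-fold and 4.23-fold in B1 and B2, so the excess was smaller in both libraries of B.

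The other 5 genes of the ring were all higher in both libraries of B than in both of A. Of the gene names at 1 FPKM or above, 28.1% were higher in both libraries of B and 32.0% in both of A. These shares are the background for the like counts by role below. *Mcm6* measured 11.4 and 12.4 FPKM in A and 20.2 and 21.9 in B, a mean of 16.5 ± 6.49 and 1.77-fold between replicate means. *Mcm3* measured 10.4 and 9.79 in A and 14.5 and 17.5 in B. *Mcm2* measured 20.9 and 21.2 in A and 30.3 and 30.3 in B, and *Mcm4* 11.9 and 11.6 in A and 14.4 and 16.5 in B. The libraries of *Mcm2* agree so closely within each replicate that its gap of 1.44-fold lies almost wholly between the replicates.

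*Mcm7* also hosts microRNA genes in its introns. The rows of *Mir25*, *Mir93* and *Mir106b* lie inside *Mcm7* on the same strand, and their FPKM was between 2.71 and 23.3 over the libraries, but fragments of the host transcript and of these rows cannot be told apart in polyA libraries. RefSeq gives 2 mature products for each of the 3 genes, and 1 of each, the arm commonly described as the guide, is shown: rno-miR-25-3p (chr12:22156652-22156673), rno-miR-93-5p (chr12:22156894-22156916) and rno-miR-106b-5p (chr12:22157103-22157123) on the minus strand of GRCr8, shown here with bases 2 to 8, the seed, in capitals.
rno-miR-25-3p: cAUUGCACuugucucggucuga
rno-miR-93-5p: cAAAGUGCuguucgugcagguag
rno-miR-106b-5p: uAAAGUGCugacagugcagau
rno-miR-93-5p and rno-miR-106b-5p share the seed AAAGUGC, while rno-miR-25-3p has AUUGCAC. Mature microRNA was not measured by these libraries.

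ORC had the widest range of any role. *Orc5* measured 30.4 and 30.7 FPKM in A and 34.4 and 30.4 in B, a mean of 31.5 ± 1.28, and was the highest. *Orc1*, the subunit whose protein is known to be degraded and remade with the cell cycle, was the lowest of all 45 genes, at 1.36 and 1.31 in A and 0.857 and 1.23 in B, a mean of 1.19 ± 0.21. *Orc1* also had the thinnest coverage in B2, 8.42 reads deep, and was below 1 FPKM in B1. The ratio of *Orc5* to *Orc1* was 26.4, and 22.9 in A against 31.0 in B.

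*Orc2* had the largest difference in favour of A of all 45 genes, with 21.1 and 18.7 FPKM in A and 15.1 and 13.9 in B, a mean of 17.2 ± 3.84. *Orc4* measured 14.6 and 15.6 in A and 14.8 and 12.9 in B, so the libraries of the replicates overlap. *Orc6* had a mean of 10.7 and also overlapped, and *Orc3*, with a mean of 8.57, was higher in both libraries of B. The 6 subunits therefore did not move as 1 group between the replicates, with 2 of 6 higher in B by their means.

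The loading factors and geminin were higher in B2 than in the other 3 libraries. *Gmnn* measured 8.18 and 9.05 FPKM in A1 and A2, 7.63 in B1 and 15.2 in B2, with replicate means of 8.62 and 11.4. *Cdt1*, the loader that geminin inhibits, measured 8.97 and 8.25 in A, 8.30 in B1 and 13.0 in B2, a mean of 9.63 ± 1.43. *Cdc6*, an ATPase that loads the helicase together with ORC, measured 2.71 and 2.46 in A, 1.89 in B1 and 3.71 in B2, a mean of 2.69 ± 0.15. In none of the 3 genes was B1 above the libraries of A, so their higher mean in B rests on B2 alone. The ratio of *Cdt1* to *Gmnn* stayed between 0.857 and 1.097 in all 4 libraries.

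Among the genes of helicase activation, *Gins2* was the highest and *Mcm10* the lowest. *Gins2* measured 27.2 and 28.4 FPKM in A and 23.4 and 20.4 in B, a mean of 24.9 ± 4.17. *Gins2* was among the 5 of the 45 genes, or 11.1%, with both libraries of A above both of B, against 32.0% of the gene names. *Mcm10*, which helps start the helicase, measured 2.35 and 2.23 in A, 2.15 in B1 and 3.73 in B2, a mean of 2.62 ± 0.46. The 4 GINS genes encode a complex of 1 copy each, yet their means ran from 3.27 for *Gins3* through 14.7 for *Gins1* and 16.4 for *Gins4* to 24.9 for *Gins2*. *Gins1*, *Gins3*, *Gins4* and *Cdc45* were higher in both libraries of B, by between 1.12-fold and 1.49-fold, so that within the GINS complex *Gins2* again ran the other way.

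*Pcna*, the ring that slides behind the polymerases, was the highest of the 45 genes and ranked 798 among all gene names. It lies at chr3:124880698-124884570 on the minus strand of rn6 and measured 129.3 and 144.2 FPKM in A, 105.2 in B1 and 148.2 in B2, a mean of 132 ± 7.10. The gap between B1 and B2 was wider than the gap between the replicate means, so no difference between the replicates can be read from it. *Rfc1*, the large subunit of the loader and the lowest of the role, measured 13.7 and 14.2 in A and 12.7 and 13.7 in B, a mean of 13.6 ± 0.53. *Pcna* exceeded *Rfc1* by between 8.27-fold and 10.8-fold in the 4 libraries. The 5 loader genes, of which 1 copy each forms the complex, had means between 13.6 and 31.5, the highest being *Rfc3*, with *Rfc5* at 18.7. Of these, *Rfc2* (1.44-fold) and *Rfc4* (1.23-fold) were higher in both libraries of B.

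In the polymerase alpha and primase complex, the small primase subunit stood above the catalytic subunit of the polymerase. *Prim1* measured 20.9 and 22.6 FPKM in A and 36.6 and 28.7 in B, a mean of 27.2 ± 7.69. *Pola1* measured 2.17 and 2.56 in A and 2.93 and 3.44 in B, a mean of 2.78 ± 0.58. *Prim1* exceeded *Pola1* by between 8.33-fold and 12.5-fold in the 4 libraries. All 4 genes of the complex, with *Pola2* at a mean of 6.23 and *Prim2* at 5.34, were higher in both libraries of B than in both of A, by between 1.28-fold and 1.5-fold.

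For the polymerases that extend the strands, *Pold2*, an accessory subunit of polymerase delta, measured 29.7 and 31.2 FPKM in A and 42.5 and 39.1 in B, a mean of 35.6 ± 7.30. The catalytic subunits were lower, with means of 17.6 ± 3.22 for *Pold1* and 4.55 ± 0.34 for *Pole*, and the accessory *Pold3* had a mean of 10.1 ± 1.01. *Pole2*, the second subunit of polymerase epsilon, was the lowest, at 3.14 and 3.26 in A, 3.59 in B1 and 5.17 in B2. All 3 polymerase delta genes and *Pole2* were higher in both libraries of B, while the libraries of *Pole* overlapped.

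Replication protein A coats single-stranded DNA as a trimer, and the levels of its 3 genes ran in the reverse order of their protein size. *Rpa3*, for the smallest subunit, measured 60.7 and 67.2 FPKM in A, 59.2 in B1 and 77.4 in B2, a mean of 66.1 ± 3.08. *Rpa1*, for the largest subunit, measured 5.38 and 5.03 in A and 6.35 and 7.65 in B, a mean of 6.10 ± 1.27. *Rpa2* lay between them with a mean of 25.4 ± 2.43. In lagging strand maturation, *Lig1*, the ligase that seals Okazaki fragments, measured 19.2 and 16.6 in A and 21.5 and 22.3 in B, and *Fen1*, the flap endonuclease, 7.20 and 8.03 in A and 9.68 and 11.0 in B. Both were higher in both libraries of B, and their ratio of 2.22 was the smallest within any role.

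Nucleotide supply held the widest differences between the libraries. *Tk1*, the thymidine kinase of S phase, measured 10.5 and 10.2 FPKM in A and 16.1 and 22.1 in B, a mean of 14.7 ± 6.20 and 1.85-fold between the replicates. *Tyms*, which makes thymidylate, measured 2.59 and 2.55 in A and 5.84 and 4.77 in B, a mean of 3.94 ± 1.93 and 2.06-fold. These are the widest gaps between the replicates among the 45 genes, and the libraries did not overlap in either.

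The ribonucleotide reductase genes behaved differently. *Rrm2*, its small subunit, measured 10.8 and 11.1 FPKM in A1 and A2, 9.64 in B1 and 20.1 in B2, a mean of 12.9 ± 2.76, so that B2 was 2.08-fold above B1. *Rrm1*, the large subunit and the highest gene of the role, measured 31.0 and 33.1 in A, 29.1 in B1 and 47.6 in B2, a mean of 35.2 ± 4.47. In both genes B1 was below the libraries of A and B2 was above them, as in *Gmnn* and *Cdc6*. The ratio of *Rrm1* to *Rrm2* lay between 2.37 and 3.02.

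Set against each other, the replicates differed little by the strict rule and more often by direction. The difference is given as log2(FPKM + 1) of replicate B minus that of replicate A, which understates the difference of low genes. A gene was counted as differing if its mean was 1 FPKM or more, with a difference of at least 1 and no overlap between the libraries. By this rule 0 of the 45 genes were higher in B, against 4.78% of the 10481 gene names at 1 FPKM or above, and 0 were higher in A, against 1.42%. The largest differences were 0.83 for *Tk1* and 0.82 for *Tyms*, followed by 0.77 for *Mcm6*, 0.62 for *Mcm3* and 0.56 for *Prim1*. The largest in favour of A were -0.43 for *Orc2*, -0.33 for *Gins2*, -0.31 for *Mcm7* and -0.19 for *Orc1*, with *Orc4* next at -0.11. *Tk1* and *Tyms* thus lay just inside the limit, and with *Tyms* at a pseudocount of 0.1 (1.02) or *Tk1* without B1 (1.03) the count became 1. At a difference of at least 0.58, 4 of the 45 genes were higher in B (*Tk1*, *Tyms*, *Mcm6* and *Mcm3*), or 8.89%, against 9.51% of all gene names, and 0 were higher in A, against 6.95%. A share of 8.89% beside 9.51% is close to the background.

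By direction, the replicate mean was higher in B for 36 of the 45 genes, or 80.0%, against 46.8% of the gene names. Both libraries of B lay above both of A for 26 genes, or 57.8%, against 28.1%, and both libraries of A lay above both of B for 5 genes, or 11.1%, against 32.0%. The median difference was 0.28 for the 45 genes and -0.03 for the gene names. Both shares were computed again with 1 library of B. Without B2, 29 of 45 genes, or 64.4%, were higher in B, against 47.8% of the gene names, with medians of 0.16 and -0.02. B1 alone lay above both libraries of A in 29 genes, against 40.3% of the gene names, and below both in 14, against 43.8%. Without B1, 37 genes, or 82.2%, were higher in B, against 46.0% of the gene names, with medians of 0.35 and -0.04. B2 alone lay above both libraries of A in 35 genes, against 40.7%, and below both in 8, against 47.4%. A single library lies outside the pair of A more easily than a pair does, so these shares are higher over all gene names too. Without B2 the level was higher in B for 4 of 4 genes of polymerase alpha and primase, 5 of 5 of polymerases delta and epsilon, 2 of 2 of Okazaki fragment maturation and 5 of 6 of the Mcm2-7 ring, as it was with B2. For helicase loading, 3 of 3 genes were higher in B with B2 and 0 of 3 without it. The count also fell from 4 of 4 to 2 of 4 for nucleotide supply. It fell from 3 of 3 to 2 of 3 for replication protein A and from 5 of 6 to 4 of 6 for helicase activation. It was 3 of 6 for the clamp and its loader and 2 of 6 for ORC, with or without B2. The summed levels of the mesenchymal and meningeal markers were also higher in both libraries of B, and their part in these differences was not tested.

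**Figure D3:**
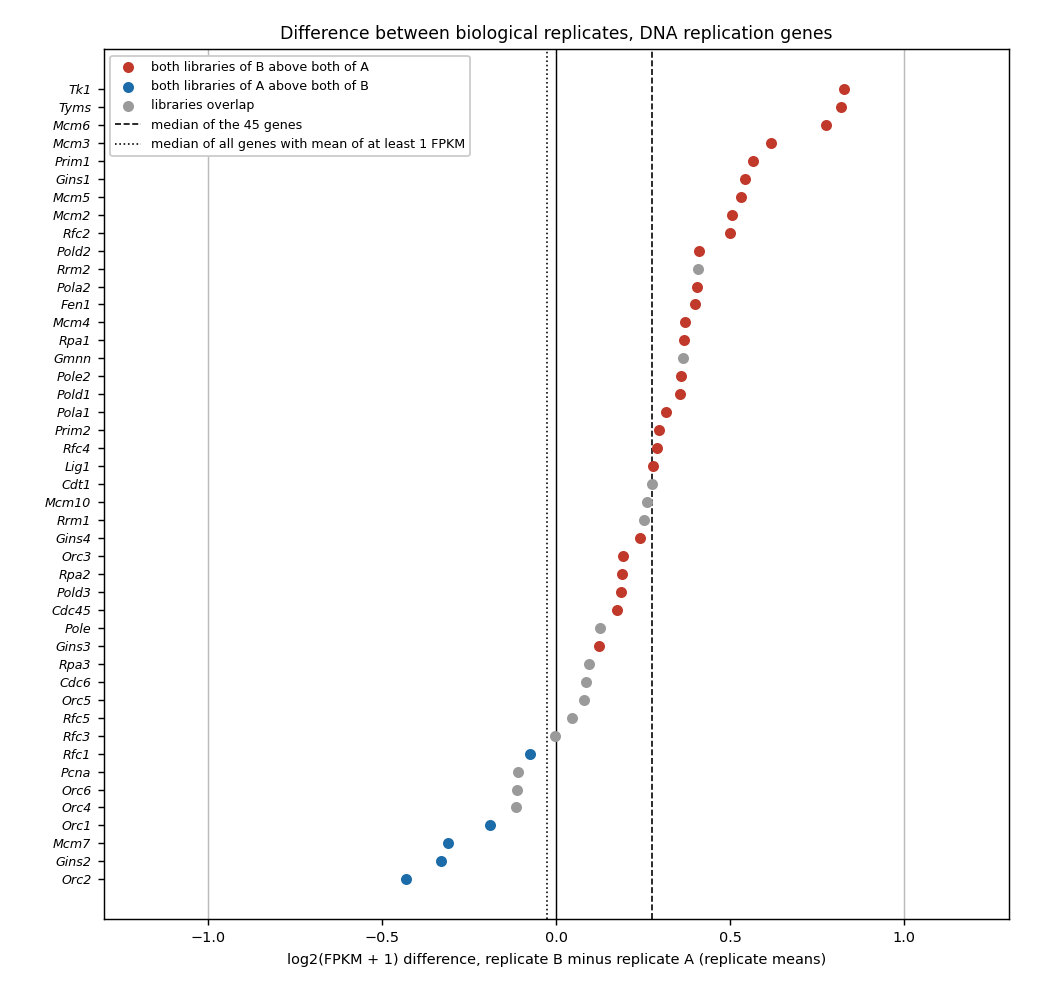
Difference between replicate means on the log2(FPKM + 1) scale, B minus A (horizontal axis), of the 45 DNA replication genes in order of the difference, coloured by whether the libraries of the replicates overlap. The dashed median of the 45 genes is at 0.28 and the dotted median of all genes at 1 FPKM or above at -0.03, and no point reaches the grey lines at -1 and 1.

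The technical libraries of A were close together for these genes and those of B less so. The median absolute difference was 0.07 between A1 and A2, against 0.11 for the gene names at 1 FPKM or above, and 0.19 for the pair of B, against 0.22. In the pair of A, 0 of the 45 genes were at least 0.58 apart, against 1.59% of the gene names. Between B1 and B2, 6 genes were at least 0.58 higher in B2, or 13.3%, against 8.27%, and 0 were that much lower, against 4.73%. The 6 genes were *Rrm2* (0.99), *Gmnn* (0.90), *Cdc6* (0.70), *Rrm1* (0.69), *Cdt1* (0.59) and *Mcm10* (0.58), 3 of which belong to helicase loading and its inhibitor. Of the 45 genes, 30 were higher in B2 than in B1, against 49.1% of the gene names. For 19 genes the gap between B1 and B2 exceeded the gap between the replicate means, and for 6 genes the gap within A did. These 2 counts were not made over all gene names, so they have no background here. B2 also had the lowest depth, and the part of depth in these gaps was not tested.

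**Figure D4:**
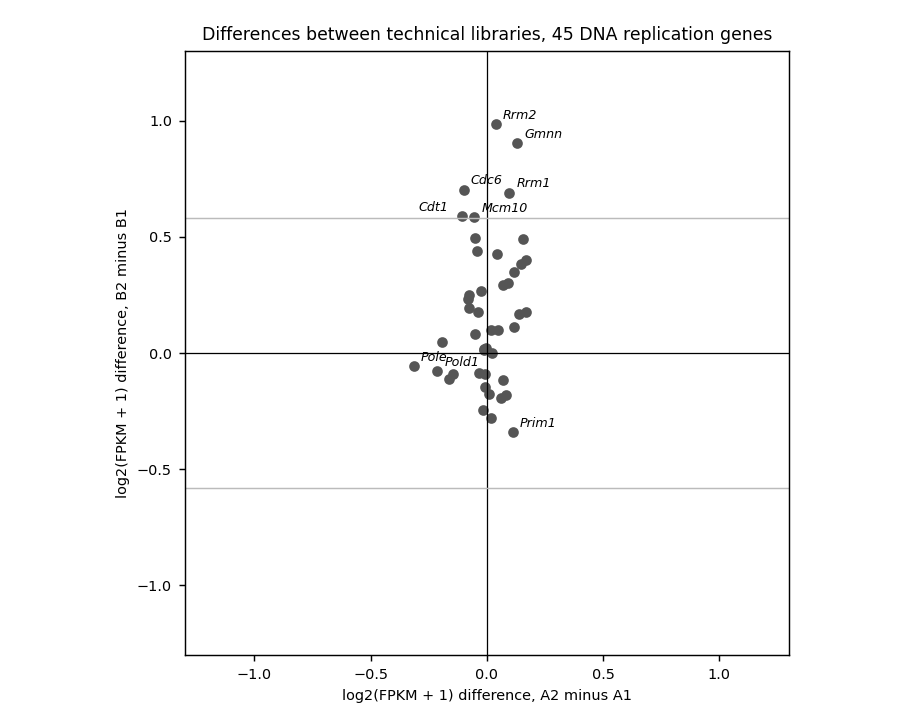
Differences between technical libraries on the log2(FPKM + 1) scale, A2 minus A1 (horizontal axis) and B2 minus B1 (vertical axis), 1 point per DNA replication gene, with grey lines at -0.58 and 0.58 on the vertical axis. All points lie within 0.32 of 0 on the horizontal axis, while *Rrm2* reaches 0.99 and *Gmnn* 0.90 on the vertical axis.

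Genes that work beside these 45 were examined as 7 lists with 58 symbols, of which 50 were in the tables. *Topbp1*, *Ticrr*, *Atr*, *Atad5*, *Mcm9*, *Dna2*, *Rnaseh2c* and *Chaf1a* were not listed under these symbols. A mean of at least 1 FPKM was reached by 49 of the 50, and their median was 11.2 FPKM. The replicate mean was higher in B for 33 of the 50, against 46.8% of the gene names, with a median difference of 0.105. Both libraries of B lay above both of A for 19, against 28.1%, and the reverse held for 11, against 32.0%. By the strict rule 0 were higher in B, against 4.78%, and 1 in A, against 1.42%, so these calls are near the background. That gene was *Lig4*, the ligase of non-homologous end joining, with 20.7 and 18.6 FPKM in A and 8.54 and 8.79 in B, a difference of -1.09.

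Each list spanned a wide range of levels. Among the kinases and firing factors, *Mtbp* was lowest, at 3.12 and 3.04 FPKM in A and 2.58 and 2.53 in B, and *Cdk2*, the S phase kinase, highest, at 20.8 and 19.3 in A and 20.9 and 19.0 in B. Among the fork protection and checkpoint genes, the mediator *Clspn* was lowest, at 1.47 and 1.31 in A and 1.48 and 2.03 in B, and *Tipin* highest, at 21.8 and 23.9 in A and 25.2 and 23.4 in B. None of these 4 genes differed by more than a few FPKM between the replicates. Among the alternative loaders and Mcm relatives, *Mcmdc2* had 1.28 and 1.25 in A and 0.846 and 1.42 in B, and *Chtf8* 32.5 and 35.0 in A and 35.0 and 36.6 in B. Among the flap nucleases, ligases and topoisomerases, *Exo1*, an exonuclease and the single gene under 1 FPKM in mean, had 0.959 and 0.965 in A and 0.768 and 1.12 in B, and *Top2b* 97.6 and 96.1 in A and 93.6 and 69.8 in B. Both libraries of A lay above both of B for *Top2b* and *Mtbp*. Among the nucleosome assembly genes, *Asf1b*, a histone chaperone, had 2.78 and 3.19 in A, 2.58 in B1 and 6.66 in B2, and *Nasp*, another, 65.4 and 67.0 in A and 68.9 and 79.0 in B. Among the nucleotide enzymes the highest was *Impdh2*, of guanine nucleotide synthesis, at 113 and 105 in A and 149.7 and 120.3 in B.

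Close relatives of the 45 genes mostly differed from them in level. *Rrm2b*, the small subunit of ribonucleotide reductase known from DNA repair, measured 0.968, 0.956 and 0.843 FPKM in A1, A2 and B1 and 1.98 in B2, and *Rrm2* exceeded it by between 10.1-fold and 11.6-fold in every library. *Tk2*, the mitochondrial thymidine kinase, measured 13.0 and 13.4 in A and 11.4 and 10.9 in B, so the ratio of *Tk1* to *Tk2* was 0.807 and 0.759 in A and 1.41 and 2.03 in B. The cytoplasmic and the mitochondrial kinase therefore changed places between the replicates. *Lig3*, the ligase of repair and of mitochondria, measured 9.91 and 6.68 in A and 6.66 and 6.53 in B, and *Lig1* exceeded it by between 1.93-fold and 3.41-fold. *Mcm8*, a helicase of recombination, had 4.18 and 3.89 in A and 2.83 and 2.81 in B, the same direction as *Mcm7*.

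The small subunits of the polymerases were well above their catalytic partners in part. *Pole4* measured 29.3 and 29.3 FPKM in A and 33.5 and 30.6 in B, and *Pole3* 29.9 and 31.6 in A and 18.5 and 27.5 in B, against 4.55 for the mean of *Pole*. *Pold4* measured 7.65 and 9.04 in A and 10.5 and 14.8 in B, below the mean of 17.6 for *Pold1*.

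Most of the E2F and RB family genes, which control many S phase genes, had a higher mean in A, and their difference from the 45 genes was not tested. Of 13 E2F and RB family symbols, 10 were in the tables, from *E2f7* at 1.32 and 1.20 FPKM in A and 0.514 and 1.54 in B to *Tfdp1*, the partner of E2F, at 54.3 and 51.1 in A and 44.4 and 44.3 in B. Only 1 of the 10, *E2f6*, a repressor, was higher in B by its mean, and 6 of 10 had both libraries of A above both of B, against 32.0% of the gene names, with a median difference of -0.20. *Rb1*, the retinoblastoma gene, measured 29.6 and 32.0 in A and 13.2 and 13.9 in B, a difference of -1.13, and was the single gene of the list counted as differing. *E2f1*, a classical activator of replication genes, measured 15.4 and 15.9 in A and 14.0 and 13.4 in B.

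Genes of G2 and mitosis were mostly higher in B. All 15 of 15 had a higher replicate mean in B, against 46.8% of the gene names, 12 had both libraries of B above both of A, against 28.1%, and the median difference was 0.61, against 0.28 for the 45 replication genes. They ran from *Bub1b*, a spindle checkpoint kinase, at 2.49 and 2.51 FPKM in A and 3.32 and 5.46 in B to *Cdk1*, the kinase of mitotic entry, at 34.7 and 38.9 in A and 48.1 and 65.6 in B. Only *Cenpa*, the histone of the centromere, was counted as differing, with 2.10 and 2.11 in A and 5.02 and 6.51 in B. All 15 were also higher in B2 than in B1, and their summed FPKM was 163 and 180 in A, 213 in B1 and 300 in B2. The libraries of *Mki67*, *Cenpf* and *Ube2c* overlapped, and *Mki67* and *Cenpf* were lower in B1 than in both libraries of A. The difference between these lists was not tested.

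In the rn6 tables, 7 of the 45 genes had a neighbour on the other strand that ran away from them with a start within 1000 bp. The share over all gene names was not computed, so whether this count is usual was not tested. The closest pairs were *Orc3* and *Rars2*, a mitochondrial arginyl-tRNA synthetase, with 79 bp between starts, *Tk1* and *Afmid* with 97 bp, and *Orc6* and *Vps35*, a retromer subunit, with 133 bp. The others were *Rpa3* and *Glcci1* at 274 bp, *Pole* and *Pxmp2* at 315 bp, *Mcm7* and *Ap4m1* at 374 bp, and *Cdc45* and *Ufd1l* at 755 bp. *Afmid* measured 3.28 and 3.02 FPKM in A and 3.06 and 1.77 in B, while *Tk1* next to it was 1.85-fold higher in B. *Glcci1* measured 10.4 and 11.8 in A and 6.37 and 7.38 in B, while the libraries of *Rpa3* overlapped. *Ap4m1* had a mean of 21.9 ± 1.38 against 85.4 for *Mcm7*, and its libraries overlapped. The high level and the direction of *Mcm7* were therefore not shared by the gene across its start. The row of the olfactory receptor gene *Olr51*, which overlaps *Rrm1*, was at 0 in every library.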

How the data were processed

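PolyA-selected RNA of the cortical neural progenitors was measured in 4 libraries, grouped by their labels. The authors aligned reads to rn6 with STAR and deposited 1 gene table per library in the layout of StringTie. The deposited FPKM values are fragments scaled to transcript length and library depth, and were used for all levels. The methods name the package Rsubread for FPKM. The deposited TPM values sum to 1000000 per library and were used as an alternative. The deposited coverage, the average number of reads over a base of a gene before scaling, served to compare depth. The study states an average raw depth per replicate, but the tables used here hold no read total per library, so no counting interval is given. Tool versions are not given in the sources used here, and the submitters' processing notes also name HISAT and cutadapt.

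Rows that share a gene name were added up (tables of 17651 to 17680 rows), technical libraries were averaged within a replicate, and mean ± SD is over the 2 biological replicates. The labels call A and B biological replicates. Genes named with values were the highest and lowest of each role and list, the 5 largest differences in each direction, genes with 1 library far from the others and close relatives. Other genes with values, such as *Mcm2*, *Mcm4*, *Gmnn* and *E2f1*, were chosen after their values were seen. The members, roles, marker lists and motifs were chosen with earlier results of these data known. No p-value, set test or resampling was used. Alternatives were TPM, a pseudocount of 0.1, median-ratio scaling, other filters, single rows, other promoter windows and strands, and each library left out.

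Promoter windows and microRNAs are RefSeq sequences on GRCr8 and were matched by symbol, while gene positions are those of the files on rn6, and the builds were not mixed. Start-seq samples and protein sequences were not analysed here, so the planned protein comparison was not run. Python 3.11.15, pandas 2.3.3, numpy 2.4.6 and matplotlib 3.10.9 were used.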

Additional observations from a re-analysis of the deposited data

Results flagged for a closer look

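Of 49 values with 4 libraries each that were examined, 45 of them the levels of the replication genes, 5 had 1 library far from the other three. *Orc5* was 34.4 FPKM in B1 against 30.4 to 30.7 in the others. *Cdt1* was 13.0 FPKM in B2 against 8.25 to 8.97, *Mcm10* was 3.73 FPKM in B2 against 2.15 to 2.35, and *Rrm2* was 20.1 FPKM in B2 against 9.64 to 11.1. The coverage per FPKM was 6.83 in B2 against 22.7 to 24.4. Of these 5, 4 were in B2. By chance about 1 in 20 sets of 4 independent values would stand out in this way, but the libraries are 2 technical pairs and not independent, so that rate does not hold for them.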

How the results depend on the processing

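With 28 results and 139 alternatives computed, 121 stayed within the spread between replicates or within 1.5 times the count, 18 moved and 0 reversed. Only the median difference between replicates has a sign, so 0 reversed was fixed for the other results. The median difference was 0.28, with 0.16 without B2 and 0.35 without B1. For role ratios and the median level, leaving out a replicate gives the value of the other replicate. The spread comes from those same values, so such alternatives could hardly move and say little about stability. In TPM, 3 genes instead of 1 reached 100 and the median level was 22.8. The count of genes called higher in B was 0, but 1 with a pseudocount of 0.1 and 4 at a log2 difference of at least 0.58, and 0 to 1 with each library left out. At a mean of at least 10 FPKM, which keeps 29 genes, 21 were higher in B and 15 had both libraries of B above A. Over the gene names at this filter the shares were 46.0% and 27.4%. With each library left out, 5 to 14 genes had A above B, 14 without B2 and 8 without B1, while the share over all gene names went from 32.0% to 43.8% and 47.4%. With a replicate or B2 left out, the ratio of the highest to the lowest gene was 9.07 to 9.80 for the clamp and its loader, 9.18 to 11.0 for polymerase alpha and primase and 9.31 to 10.7 for polymerases delta and epsilon. Ranges within the replicate spread were wider for some roles, 8.52 to 16.1 for Mcm2-7, 22.9 to 31.0 for ORC, 7.45 to 12.1 for helicase activation and 7.24 to 12.5 for nucleotide supply. With motifs read on the gene strand only, 12 genes had E2F, 6 the E2F core, 12 CCAAT and 0 TATAAA. In this order the shares were 31.6%, 15.8%, 31.6% and 0%. Over the windows of genes at 1 FPKM or above they were 2.32%, 4.28%, 21.2% and 4.0%, so the background fell too. With 150 bases before the start, 3 had CHR and 0 TATAAA, or 7.89% and 0%, against 7.44% and 3.63% for genes at 1 FPKM or above. The causes of these shifts were not tested, except that fewer genes, libraries or bases entered some of them. No paired analysis was possible because all 4 libraries belong to 1 condition. With 2 replicates and a shallow B2, low genes such as *Orc1* are the least precise.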
